A study of Homo sapiens with 27 samples.

Results

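MCFD2, LMAN1, LMAN2, CALU, RCN1, RCN2, VAMP7 and VAMP3 are 8 genes of the early secretory pathway and of vesicle fusion, taken by symbol from a table of 23228 genes, and all 8 were found. MCFD2, CALU and VAMP7 were chosen because their transcripts rose after GATA2 knockdown in every line, so their knockdown values below are a description and carry no test. The other 5 were taken as a partner or relatives of those 3, although earlier results of these data were known when they were chosen. The study asked how transcript levels change in chemotherapy-resistant, castration-resistant prostate cancer cells (labelled Ch-CRPC) when GATA2, a zinc finger transcription factor, is knocked down. RNA was sequenced from 3 human sublines, DU145-DR, 22Rv1-DR and ARCaPM-DR, each carrying a hairpin labelled Control or 1 of 2 hairpins against GATA2, shGATA2a or shGATA2b. Each of the 9 groups has 3 libraries, 27 in all. All groups carry a hairpin, and untransduced cells were not analysed here. Each line stands for 1 resistant subline, and a change made by the Control hairpin itself cannot be told apart from a change made by both GATA2 hairpins, because the 2 comparisons in a line share its Control libraries.

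Newly made secretory proteins leave the endoplasmic reticulum (ER) in vesicles coated with COPII, and some need a receptor to be loaded. LMAN1 (ERGIC-53) is a lectin that cycles between the ER and the Golgi, and with its small calcium-binding partner MCFD2 it forms the receptor that carries coagulation factors V and VIII; inherited loss of either gene causes combined deficiency of both factors. LMAN2 (VIP36) is a related lectin. Calumenin (CALU) and the reticulocalbins RCN1 and RCN2 are calcium-binding CREC proteins of the ER lumen and secretory pathway, and VAMP7 and VAMP3 are SNAREs, the membrane proteins that pull a vesicle and its target membrane together: VAMP7 acts at late endosomes, lysosomes and the cell surface, VAMP3 in recycling endosomes.

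Values are normalised read counts as deposited, in which each library's reads are divided by a single size factor. Recovered depth was 3.44 to 19.4 M reads per library with a median of 12.87 M, and the shallowest was ARCaPM-DR shGATA2a replicate 3. GATA2 fell in all 3 lines. Its log2 difference was -1.85 for DU145-DR (adjusted p = 5.5e-05, limma), -1.71 for 22Rv1-DR (adjusted p = 0.0256) and -2.56 for ARCaPM-DR (adjusted p = 8.8e-05). Several GATA2 values were not a whole number of reads: 3 of 3 Control and 2 of 6 knockdown values in DU145-DR, 2 of 3 and 5 of 6 in 22Rv1-DR, and 0 of 9 in ARCaPM-DR. Of the fixed marker list, the prostate gene KLK3 averaged 105 in 22Rv1-DR Control libraries and was at 0 in every DU145-DR and ARCaPM-DR library. The summed level of 8 markers of immune, endothelial and stromal cells moved with knockdown in DU145-DR, from 598 to 819 in Control libraries to 397 to 555 in knockdown libraries, and the other way in ARCaPM-DR, from 3699 to 5722 to 6008 to 15209; in 22Rv1-DR the ranges overlapped, at 771 to 4042 and 786 to 1621. COL1A1 fell in DU145-DR by 0.74 (adjusted p = 0.0153, limma), a call lost without Control replicate 1 (0.0904) or Control replicate 2 (0.0504) and in 1 fit of all libraries (0.29). In ARCaPM-DR COL3A1 rose by 2.01 and CD68 fell by 1.75 on the log2 scale (adjusted p = 0.00878 and 0.0038, limma), while CD3E was at 0 in all libraries and PECAM1 at 0 in those of ARCaPM-DR. Their part in the results below was not tested.

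The sequences upstream of the chosen genes are shown because these genes moved together after loss of a DNA-binding factor. They are from RefSeq (GRCh38.p14, a later build than the hg19 of the submitters' processing notes), and promoters were matched for 8 of 8 genes. Each line gives the part of the 250 bases before a transcription start that lies outside annotated exons, 5′ to 3′ on the gene's strand; for MCFD2, which has 3 listed starts, the stretch before the third start and 26 bases around a GATA match before the first are given. Capitals mark matches on either strand to a GATA site (the letters AGATAA as well as AGATAG, besides TGATAA as well as TGATAG), to the E-box CACGTG, or to CCACG, the core of the ER stress element; the last 2 can overlap.
MCFD2, GATA match before start 1, chr2:46916207-46916232, minus strand: agcattcctaTTATCTttcttcccaa
MCFD2, before start 3, chr2:46915869-46915980, minus strand: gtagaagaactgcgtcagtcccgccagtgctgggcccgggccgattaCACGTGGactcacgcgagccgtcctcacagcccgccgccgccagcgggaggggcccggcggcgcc
CALU, chr7:128739109-128739291, plus strand: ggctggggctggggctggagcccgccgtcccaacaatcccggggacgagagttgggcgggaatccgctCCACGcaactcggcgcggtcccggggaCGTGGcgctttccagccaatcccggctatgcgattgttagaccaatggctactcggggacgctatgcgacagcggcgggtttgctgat
VAMP7, chrX:155881095-155881292, plus strand: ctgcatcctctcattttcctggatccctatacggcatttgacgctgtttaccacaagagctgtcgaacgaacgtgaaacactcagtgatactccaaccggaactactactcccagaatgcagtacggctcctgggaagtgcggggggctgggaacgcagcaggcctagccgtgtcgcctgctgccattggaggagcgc

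Over the whole 250 bases, a single GATA site match lay before MCFD2 starts 1 and 2, whose windows overlap. It stood at base -110 from start 1 and base -169 from start 2, in sequence that is also an exon of TTC7A on the other strand. Before start 3 of MCFD2 lay an E-box that overlaps a CCACG match. CALU held 2 matches to CCACG, at bases -182 and -155 from the start. VAMP7 held 1, at base -36, which falls in an annotated exon of VAMP7 and outside the stretch shown. CCACG also lay before MCFD2 start 2 (-37) and before LMAN1 (-162), RCN1 (-141) and VAMP3 (-93), which were taken as a partner or relatives. None of the 8 genes' promoters held the unfolded protein response element TGACGTGG. Of 35116 promoters of this length, 22.3% held a GATA site, 33.5% CCACG, 6.34% CACGTG and 0.612% TGACGTGG. CCACG was matched alone, without the rest of the ER stress element. These matches are letters in a window and were not tested for binding.

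MCFD2 stood higher in every knockdown library than in every Control library of its line. In DU145-DR the Control libraries (replicates 1 to 3) held 2124, 2162 and 2581 normalised counts, the shGATA2a libraries 5661, 4637 and 5081, and the shGATA2b libraries 6319, 5165 and 4892. In 22Rv1-DR the values were 875, 900 and 623 in Control, 1855, 1553 and 2029 with shGATA2a, and 1625, 1533 and 2048 with shGATA2b. In ARCaPM-DR they were 1351, 1428 and 1433 in Control, 5073, 4323 and 4808 with shGATA2a, and 5027, 4766 and 4769 with shGATA2b. The Control and knockdown groups did not overlap in any line, and both hairpins gave like levels. Group means moved from 2289 ± 254 (SD, n = 3) to 5292 ± 607 (SD, n = 6) in DU145-DR, from 799 ± 153 to 1774 ± 235 in 22Rv1-DR and from 1404 ± 45.8 to 4794 ± 267 in ARCaPM-DR. On the scale log2(value + 1) the differences were 1.21 ± 0.11 (SE), 1.16 ± 0.17 and 1.77 ± 0.09. All MCFD2 values were whole numbers of reads.

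LMAN1, the lectin of the same receptor, went the other way from MCFD2 in ARCaPM-DR. It fell there to 0.501 of its Control level. In the other 2 lines it did not pass the main test, which has no replicate block. In ARCaPM-DR the Control libraries held 4346, 4285 and 5065 normalised counts, against 2518, 1982 and 3350 with shGATA2a and 1875, 1889 and 2386 with shGATA2b. All 6 knockdown libraries lay below all 3 Control libraries, as for 10% of all genes in this line, and the log2 difference was -0.996 ± 0.162 (adjusted p = 0.00274, limma). Across all 21 alternatives the adjusted p stayed between 6.7e-08 and 0.0194.

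In DU145-DR all 6 knockdown libraries lay above the Control libraries, as for 10% of all genes in this line. They held 5824 to 6611 normalised counts against 4815 to 5547. The LMAN1 log2 difference there was 0.23 ± 0.08 with an adjusted p of 0.0703 by limma, 0.0762 by edgeR and 0.0383 by DESeq2; with the replicate number as a block it was 0.0064. In 22Rv1-DR the third library of each group stood apart. Replicates 1 and 2 held 1487 and 1352 in Control, 1011 and 975 with shGATA2a, and 1092 and 1105 with shGATA2b, while replicate 3 held 2124, 2076 and 2246 in the same order. The groups overlapped, with a log2 difference of -0.29 ± 0.30 (adjusted p = 0.722, limma).

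The LMAN1 response differed between ARCaPM-DR and DU145-DR, by -1.22 ± 0.31 on the log2 scale (adjusted p = 0.0172, limma, 27 libraries). The difference lost its call without ARCaPM-DR Control replicate 3 (-1.15, adjusted p = 0.0511) and without DU145-DR Control replicate 2 (-1.16, adjusted p = 0.0563). Between ARCaPM-DR and 22Rv1-DR it was -0.71 (adjusted p = 0.248; 0.00119 with the replicate block), and between 22Rv1-DR and DU145-DR -0.51 (adjusted p = 0.504; 0.0165 with the replicate block). LMAN1 was the only 1 of the 5 partners and relatives called for ARCaPM-DR against DU145-DR, where 7.13% of all genes tested were called. For the other 2 pairs of lines 0 of 5 were called by limma or by edgeR, against backgrounds of 1.09% for 22Rv1-DR minus DU145-DR and 3.39% for ARCaPM-DR minus 22Rv1-DR. At an unadjusted limma p below 0.05 there were 2 and 3 of the 5, and the replicate block called 2 for each pair, against backgrounds of 10.3% and 14.9%.

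**Figure D1:**
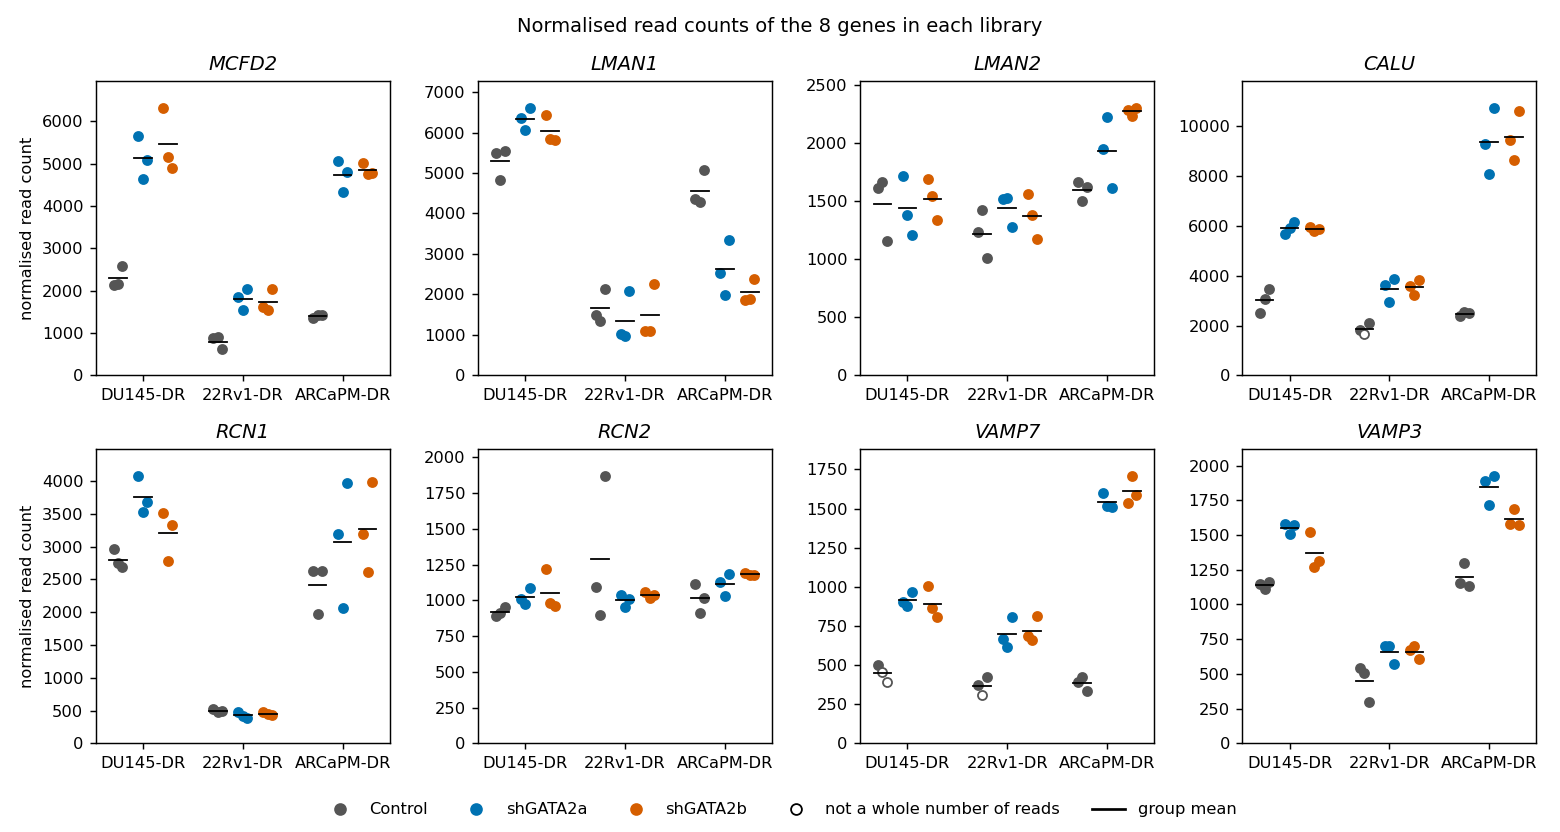
Normalised read count (linear vertical axes from 0) of each of the 8 genes in every library, by line and hairpin; points are libraries, horizontal lines group means, and open points values that are not a whole number of reads. MCFD2, CALU, VAMP7 and VAMP3 show every knockdown library above every Control library in all 3 lines, while LMAN1 is lower in the ARCaPM-DR knockdown libraries.

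The balance of MCFD2 and LMAN1 reads shifted within each line. The ratio of their normalised counts, not corrected for transcript length, was 0.434 ± 0.0416 in DU145-DR Control libraries and 0.855 ± 0.0824 in the 6 knockdown libraries. It went from 0.516 ± 0.196 to 1.37 ± 0.359 in 22Rv1-DR and from 0.309 ± 0.0253 to 2.14 ± 0.441 in ARCaPM-DR, 1.97-, 2.65- and 6.92-fold. Because MCFD2 was chosen on these differences, the ratio is a description. Per kilobase of annotated exon, Control libraries held 476 normalised counts of MCFD2 and 957 of LMAN1 in DU145-DR, 166 and 300 in 22Rv1-DR and 292 and 827 in ARCaPM-DR, so LMAN1 was the higher per length in all 3. In knockdown libraries the order was turned in 22Rv1-DR, with 369 for MCFD2 and 257 for LMAN1, and in ARCaPM-DR, with 996 and 423, while in DU145-DR the levels were 1100 and 1121.

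LMAN2 passed the test in ARCaPM-DR and in neither other line, with a log2 difference of 0.39 ± 0.11 (adjusted p = 0.0369, limma). Its Control libraries held 1662, 1503 and 1618 normalised counts, against 1950, 2223 and 1613 with shGATA2a and 2286, 2232 and 2303 with shGATA2b; 5 of 6 knockdown libraries lay above all Control libraries. This call was lost in 10 of 21 alternatives. They include leaving out any Control library, shGATA2a replicate 1 or any shGATA2b library, with an adjusted p of up to 0.121. In ARCaPM-DR LMAN2 passed with shGATA2b alone (0.51, adjusted p = 0.0254, limma) and not with shGATA2a alone (0.26, adjusted p = 0.206). The LMAN2 differences in DU145-DR and 22Rv1-DR were 0.01 ± 0.14 and 0.21 ± 0.15 (adjusted p = 0.977 and 0.624, limma). The test of the response between lines gave 0.38 for ARCaPM-DR against DU145-DR (adjusted p = 0.285, limma, and 0.0396 with the replicate block). Against 22Rv1-DR it gave 0.18 (adjusted p = 0.716, limma, and 0.378 with the replicate block).

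CALU, which is known to act in calcium handling and to inhibit vitamin K-dependent gamma-carboxylation, also stood higher in all knockdown libraries. Its DU145-DR values were 2519, 3060 and 3477 normalised counts in Control, 5688, 5910 and 6165 with shGATA2a, and 5965, 5800 and 5878 with shGATA2b. The 22Rv1-DR values were 1814, 1660 and 2103 in Control, 3628, 2939 and 3868 with shGATA2a, and 3597, 3227 and 3813 with shGATA2b. In ARCaPM-DR they were 2380, 2536 and 2504 in Control, 9302, 8071 and 10735 with shGATA2a, and 9452, 8630 and 10611 with shGATA2b. No group overlapped its Control. The CALU log2 differences were 0.98 ± 0.10 for DU145-DR, 0.92 ± 0.14 for 22Rv1-DR and 1.93 ± 0.11 for ARCaPM-DR, or 1.97-, 1.89- and 3.81-fold.

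RCN1, a resident of the ER lumen, had smaller differences than CALU. In DU145-DR it went from 2958, 2752 and 2697 in Control to 4082, 3521 and 3680 with shGATA2a and 3507, 2783 and 3330 with shGATA2b, and 5 of 6 knockdown libraries lay above the Control libraries. The RCN1 log2 difference was 0.31 ± 0.09 (adjusted p = 0.037, limma), a call lost in 11 of 21 alternatives, with a highest adjusted p of 0.325. Among these were leaving out any Control library and either replicate 1 or 3 of each knockdown group. It passed with shGATA2a alone (0.42, adjusted p = 0.0178) and not with shGATA2b alone (0.19, adjusted p = 0.308), and the hairpins' difference was -0.23 (adjusted p = 0.825).

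In ARCaPM-DR RCN1 spread widely, with 2632, 1970 and 2633 in Control, 3187, 2060 and 3964 with shGATA2a and 3195, 2616 and 3991 with shGATA2b, so the groups overlapped. Within each replicate number both hairpin libraries lay above the Control library. The RCN1 log2 difference was 0.37 ± 0.21 (adjusted p = 0.25, limma, and 0.00257 with the replicate block). With the block 45.0% of all genes were called in this line. In 22Rv1-DR it was low throughout, at 473 to 521 in Control and 386 to 484 in knockdown libraries, with a log2 difference of -0.17 ± 0.14 (adjusted p = 0.654). Between 22Rv1-DR and DU145-DR the RCN1 response differed by -0.48 (adjusted p = 0.343, and 0.0115 with the replicate block).

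RCN2, another reticulocalbin of the ER, passed in no line. Its log2 differences were 0.17 ± 0.09 for DU145-DR, -0.27 ± 0.20 for 22Rv1-DR and 0.18 ± 0.10 for ARCaPM-DR (adjusted p = 0.21, 0.632 and 0.226, limma). The DU145-DR groups did not overlap, at 892 to 952 normalised counts in Control and 963 to 1218 in knockdown libraries. All 6 knockdown libraries lay above all 3 Control libraries for 10% of all genes in this line. In 22Rv1-DR a single library, Control replicate 3, held 1872, while the other 8 held 901 to 1094; without it the log2 difference was 0.04. The ratio of CALU to RCN1 went from 1.08 ± 0.22 in Control to 1.72 ± 0.221 in knockdown libraries of DU145-DR, from 3.76 ± 0.461 to 8.03 ± 1.19 in 22Rv1-DR and from 1.05 ± 0.209 to 3.08 ± 0.47 in ARCaPM-DR, as a description.

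**Figure D2:**
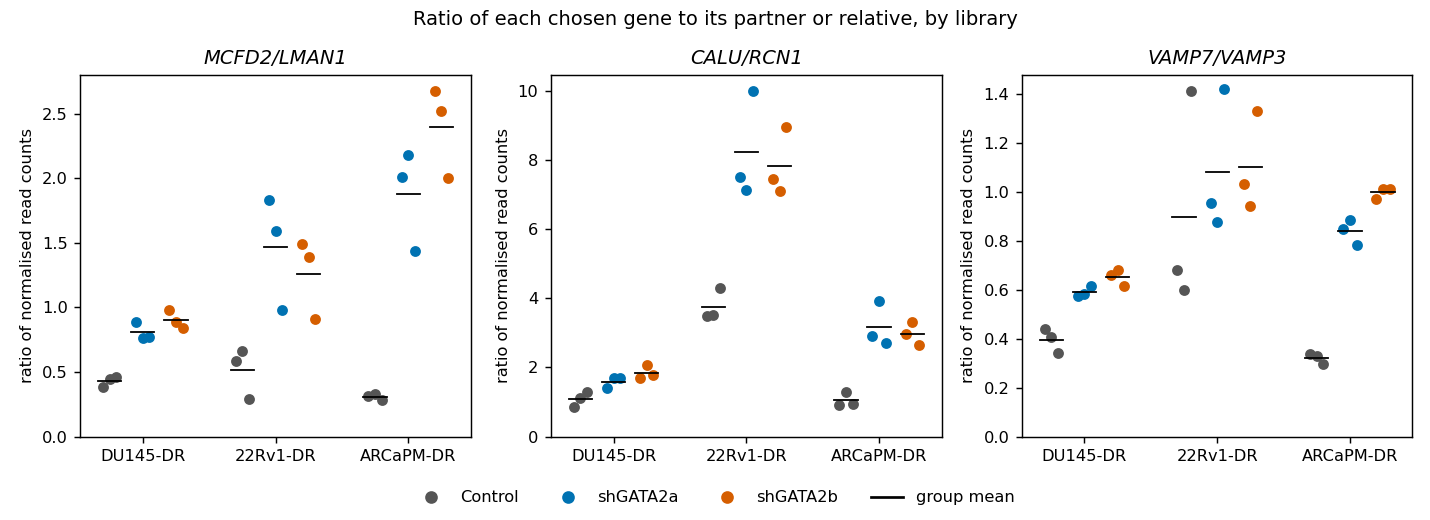
Ratio of normalised read counts of MCFD2 to LMAN1, CALU to RCN1 and VAMP7 to VAMP3 (linear axes from 0) in every library, by line and hairpin, with group means as horizontal lines. The MCFD2 to LMAN1 ratio is at most 0.333 in the ARCaPM-DR Control libraries and at least 1.44 in the knockdown libraries there, while the VAMP7 to VAMP3 ratio overlaps between groups in 22Rv1-DR.

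VAMP7 had the largest difference of the 8 genes in ARCaPM-DR. Its ARCaPM-DR values were 391, 425 and 334 normalised counts in Control, 1602, 1516 and 1512 with shGATA2a, and 1533, 1710 and 1586 with shGATA2b, a log2 difference of 2.04 ± 0.10 or 4.12-fold. In DU145-DR the Control libraries held 501, 455 and 394, against 904, 880 and 968 with shGATA2a and 1004, 862 and 807 with shGATA2b (1.01 ± 0.10). In 22Rv1-DR they held 372, 306 and 421, against 668, 615 and 810 with shGATA2a and 688, 659 and 815 with shGATA2b (0.96 ± 0.16). No knockdown group overlapped its Control. Knockdown libraries all lay above Control for 11% of all genes in ARCaPM-DR, 10% in DU145-DR and 2.9% in 22Rv1-DR, and VAMP7 was chosen because it rose. VAMP7 lies in a region shared by the X and Y chromosomes, so how reads were assigned between near-identical copies is uncertain.

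VAMP3 rose in DU145-DR and ARCaPM-DR, with smaller differences than VAMP7. In DU145-DR it went from 1145, 1114 and 1161 in Control to 1579, 1506 and 1576 with shGATA2a and 1525, 1270 and 1315 with shGATA2b. In ARCaPM-DR it went from 1153, 1300 and 1131 to 1890, 1714 and 1928 with shGATA2a and 1581, 1687 and 1574 with shGATA2b. The log2 differences were 0.35 ± 0.08 (adjusted p = 0.0116) and 0.53 ± 0.09 (adjusted p = 0.00416, limma). The DU145-DR call was lost without Control replicate 1 (adjusted p = 0.0544), without Control replicate 2 (0.0643) and in 1 fit of all 27 libraries (0.15). In DU145-DR VAMP3 passed with shGATA2a alone (0.45, adjusted p = 0.00833, limma) and not with shGATA2b alone (0.26, adjusted p = 0.118). The hairpins' difference was -0.19 (adjusted p = 0.858, limma).

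In 22Rv1-DR the VAMP3 Control libraries held 544, 510 and 299 and the knockdown libraries 572 to 702. The groups did not overlap, as for 2.9% of all genes in this line with the knockdown libraries higher. However, the third Control library stood low, and the log2 difference of 0.59 ± 0.19 did not pass (adjusted p = 0.363, limma). Without that library the VAMP3 difference was 0.32 (adjusted p = 0.516). No test of the VAMP3 response between lines passed, with differences of 0.24, 0.18 and -0.06 (adjusted p = 0.632, 0.67 and 0.92, limma). The VAMP7 to VAMP3 ratio went from 0.395 ± 0.0503 to 0.62 ± 0.0412 in DU145-DR, from 0.896 ± 0.444 to 1.09 ± 0.226 in 22Rv1-DR and from 0.321 ± 0.0228 to 0.918 ± 0.0936 in ARCaPM-DR, as a description. Of the VAMP7 Control values, 2 in DU145-DR and 1 in 22Rv1-DR were lower than a whole number of reads by a round offset. The ratio was not computed with those offsets added back.

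Of the 5 partners and relatives, limma called 2 in DU145-DR (RCN1 and VAMP3, both higher), 0 in 22Rv1-DR and 3 in ARCaPM-DR (LMAN2 and VAMP3 higher, LMAN1 lower). The share of all genes tested that was called in these comparisons was 16.7% in DU145-DR (8.72% higher, 7.98% lower), 0.400% in 22Rv1-DR (0.124% higher, 0.276% lower) and 18.5% in ARCaPM-DR (9.86% higher, 8.62% lower). In 22Rv1-DR edgeR called 57 and DESeq2 185 of 13757 genes against 55 by limma, 1 of the 5 had an unadjusted limma p below 0.05, and 0 of the 5 were called by any of the 3 tools. With the replicate block 5184 genes (38.8%) were called for DU145-DR, 166 (1.21%) for 22Rv1-DR and 5885 (45.0%) for ARCaPM-DR, and 3, 0 and 4 of the 5. The share of all genes with all 6 knockdown libraries above all 3 Control libraries was 10% for DU145-DR, 2.9% for 22Rv1-DR and 11% for ARCaPM-DR; among the 5, VAMP3 showed this in all 3 lines and LMAN1 and RCN2 in DU145-DR.

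**Figure D3:**
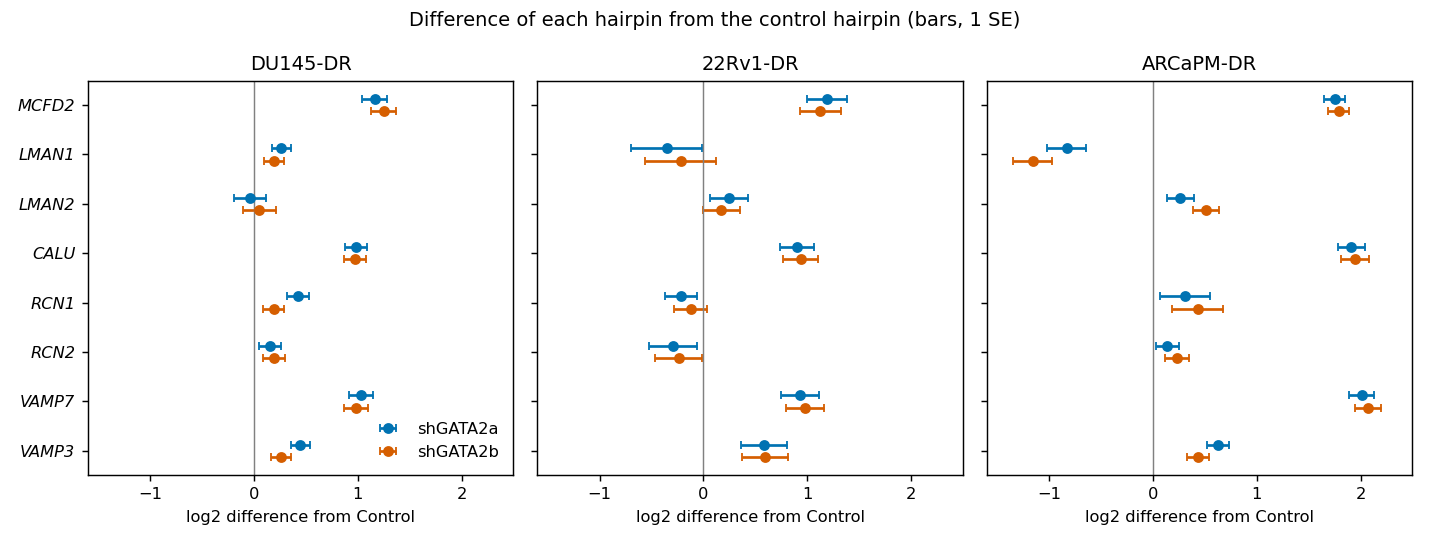
Log2 difference of shGATA2a and of shGATA2b from the Control hairpin for each of the 8 genes, by line; points are fitted differences and bars 1 standard error. Points for MCFD2, CALU and VAMP7, which were chosen on these differences, lie from 0.90 to 1.25 in DU145-DR and 22Rv1-DR and from 1.75 to 2.07 in ARCaPM-DR, and LMAN1 lies to the left of 0 in ARCaPM-DR.

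The direct comparison of the hairpins does not use the Control level, although the Control libraries enter its residual spread, and it was tested for all 8 genes. In DU145-DR and in 22Rv1-DR 0 of 8 were called, with a background of 0% in both lines (787 and 13 of all genes had an unadjusted limma p below 0.05, edgeR called 0 in both, and DESeq2 12 and 0). In ARCaPM-DR it was also 0 of 8, against a background of 0.803%. At an unadjusted limma p below 0.05 there were 1, 0 and 0 of the 8 in these lines, and edgeR and DESeq2 called 0 of the 8 in each. For the chosen genes shGATA2b minus shGATA2a was 0.09, -0.07 and 0.04 for MCFD2, -0.01, 0.03 and 0.03 for CALU and -0.05, 0.05 and 0.06 for VAMP7, with the lines in the order DU145-DR, 22Rv1-DR, ARCaPM-DR and standard errors of 0.10 to 0.20. The differences of largest size were those of LMAN1 (-0.33 ± 0.19, adjusted p = 0.588) and LMAN2 (0.25 ± 0.13, adjusted p = 0.526) in ARCaPM-DR.

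Without knockdown, the share of the 8 genes that differed between lines did not stand above that of all genes. In Control libraries of 22Rv1-DR against DU145-DR, 5 of 8 genes were called, all lower in 22Rv1-DR, against a background of 67.6%. RCN1 differed by -2.50 (adjusted p = 4.7e-08), LMAN1 by -1.70 (6.8e-06), MCFD2 by -1.53 (7.4e-06), VAMP3 by -1.38 (1.0e-04) and CALU by -0.69 (0.00199), as adjusted p of limma. In ARCaPM-DR against 22Rv1-DR the same 5 were called, all higher in ARCaPM-DR, by 2.27, 1.49, 0.83, 1.45 and 0.42, against a background of 67.1%; the CALU call (adjusted p = 0.0322) was lost in 7 alternatives, among them without 22Rv1-DR Control replicate 1 (0.0728), without any single ARCaPM-DR Control library (up to 0.0791) and without 22Rv1-DR Control replicate 2 (0.11), whose CALU value was not whole. In ARCaPM-DR against DU145-DR only MCFD2 was called of the 8, at -0.70 (adjusted p = 0.00348), against 56.1% of all genes. LMAN2, RCN2 and VAMP7 passed between no pair of lines. For VAMP7 this rests on the deposited values, of which 2 in DU145-DR Control and 1 in 22Rv1-DR Control were not whole. With their round offsets added back the VAMP7 Control means were 549.9 in DU145-DR and 399.3 in 22Rv1-DR. The deposited means were 449.9 and 365.9, beside 383 in ARCaPM-DR. Control levels were not tested again with the offsets added back. From high to low, Control levels of MCFD2 thus ran DU145-DR, ARCaPM-DR, 22Rv1-DR with each step past the test, and for LMAN1, CALU and RCN1 the order was the same with the step from DU145-DR to ARCaPM-DR not past it.

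A property of the table touches CALU and VAMP7. Within 0.005 reads, 99.954% of the values above 0 were whole numbers of reads; 199 values in 58 genes were not, and 4 of these belong to CALU and VAMP7, all in Control libraries. Each of the 4 became whole when a single multiple of 100, of the 20 tried, was added back: VAMP7 in DU145-DR Control replicate 2 (454.64, or 554.64 with 100 added) and replicate 3 (394.22, or 594.22), VAMP7 in 22Rv1-DR Control replicate 2 (305.71, or 405.71) and CALU in 22Rv1-DR Control replicate 2 (1660.11, or 1960.11). Their origin was not given in the sources used here. With the offsets added back the VAMP7 difference moved from 1.01 to 0.72 in DU145-DR and from 0.96 to 0.82 in 22Rv1-DR, and that of CALU in 22Rv1-DR from 0.92 to 0.84; with the 4 values left out they were 0.85, 0.83 and 0.84. The knockdown libraries still lay above the Control libraries in each case. All ARCaPM-DR values of the 8 genes, and all values of MCFD2, were whole.

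The line that limited the choice of the 3 genes was 22Rv1-DR, where the fewest genes were called. In all, 9 genes rose in all 3 lines, 7 of them with at least 1 value that was not whole; MCFD2 and PTPMT1, a mitochondrial phosphatase, had none. The adjusted p in 22Rv1-DR that admitted them was 0.0256 for MCFD2, 0.0281 for CALU and 0.0321 for VAMP7; the gene just inside was PTPMT1 at 0.0493 and those just outside were GOPC and ERCC5 at 0.0547. When the 58 genes were left out, the 22Rv1-DR value of MCFD2 was 0.0766, which misses the threshold, and 1 gene was called there. These values describe the selection and are no support for it.

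PTPMT1 had the pattern most like each of the 3 chosen genes. Likeness was the root mean square difference over the 6 log2 differences of each hairpin from its Control, among 9673 genes with only whole values and a mean of at least 50 in each line. PTPMT1 lay 0.201 from MCFD2, 0.106 from CALU and 0.113 from VAMP7, with differences of 0.95 and 0.98 in DU145-DR, 1.07 and 0.99 in 22Rv1-DR and 1.79 and 2.08 in ARCaPM-DR. Next were BOD1 (0.355) and TAPT1 (0.372) for MCFD2, and ZNHIT6 and BOD1 for CALU (0.21 and 0.271) and VAMP7 (0.249 and 0.313). CALU and VAMP7 lay 0.0726 from each other with the deposited values, closer than either lay to any of those genes. Both hold Control values that were not whole, while other genes with such values were left out of the comparison. With the offsets added back the VAMP7 difference in DU145-DR was 0.72 rather than 1.01, and the distances were not computed again. The 3 genes were chosen on these differences, so the distances are a description. The hairpins of a line share its Control, so the 6 differences are not independent.

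Other genes of the pathway moved in both directions, and most were not called. The list counts stand beside the limma shares over all genes tested. These were 8.72% higher and 7.98% lower in DU145-DR, 0.124% and 0.276% in 22Rv1-DR, and 9.86% and 8.62% in ARCaPM-DR. In the list of the receptor, related lectins and their cargo, 1 of the 7 genes tested outside the 8 rose in DU145-DR and 1 fell in ARCaPM-DR. SERPINA1, which encodes the LMAN1 cargo alpha-1 antitrypsin, rose in DU145-DR from 12 to 33 normalised counts (1.31 ± 0.34, adjusted p = 0.0207, limma). SURF4, another cargo receptor of the ER, fell in ARCaPM-DR from 4159 to 1755 (-1.25 ± 0.10, adjusted p = 7.9e-05, limma), the line in which LMAN1 fell. The SERPINA1 call was lost without Control replicate 2 (0.0629) or Control replicate 3 (0.0713). The list's median log2 difference outside the 8 was 0.015 for DU145-DR, -0.151 for 22Rv1-DR and -0.111 for ARCaPM-DR, beside -0.002, -0.016 and -0.004 over all genes tested.

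In the CREC family, 1 of the other 2 genes was called: RCN3, at 55 normalised counts in Control and 25 in knockdown libraries, fell in DU145-DR with an adjusted p of 0.0429 (limma). That call was lost in 11 of 20 alternatives, the highest adjusted p being 0.226, among them without Control replicate 1 or 2, shGATA2a replicate 2 or 3, or any shGATA2b library. Among the other VAMP and longin SNAREs, limma, edgeR and DESeq2 called 0 of 7 in DU145-DR and 0 of 9 in 22Rv1-DR, with 0 at an unadjusted p below 0.05 in both lines, and 1 of 7 fell in ARCaPM-DR, SEC22C, a longin protein of the early pathway (-0.69 ± 0.15, adjusted p = 0.013, limma). It lost that call without Control replicate 1 (0.0631) or Control replicate 3 (0.0615).

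Among 39 other SNAREs and their partners in ARCaPM-DR, 6 rose and 6 fell, and in DU145-DR 2 of 39 rose and 1 fell. In 22Rv1-DR 0 of 40 were called. Over all genes tested, 9.86% rose and 8.62% fell in ARCaPM-DR, and 8.72% and 7.98% in DU145-DR. STX12, an endosomal syntaxin, rose in both DU145-DR (0.51, adjusted p = 0.0123) and ARCaPM-DR (1.20, adjusted p = 3.1e-04), and STX17, a syntaxin of autophagosomes, rose in ARCaPM-DR (0.90, adjusted p = 0.00367, limma). NAPG, which helps to take SNARE complexes apart, and STX3, a plasma membrane syntaxin, fell in ARCaPM-DR by 0.74 and 0.68 (adjusted p = 0.00133 and 0.00264). Of 18 genes listed as partners of VAMP7, 4 rose and 3 fell in ARCaPM-DR and 1 rose and 1 fell in DU145-DR. AP3B1, a subunit of the AP-3 adaptor that sorts VAMP7, rose in ARCaPM-DR from 2405 to 4858 (adjusted p = 8.2e-04), while SNAP23, a plasma membrane SNARE that pairs with VAMP7, fell by 0.54 (adjusted p = 0.0057). KIF5B, a kinesin heavy chain, rose in DU145-DR (0.59, adjusted p = 0.00227, limma).

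Most genes of the COPII and COPI coats were not called. The shares of all genes that rose and fell were 8.72% and 7.98% in DU145-DR and 9.86% and 8.62% in ARCaPM-DR. Of 24 COPII and ER exit genes, 5 rose and 1 fell in DU145-DR and 3 rose and 0 fell in ARCaPM-DR, with list medians of 0.05 and 0.07. PDCD6 (ALG-2), a calcium-binding regulator of COPII, rose in both, from 526 to 861 and from 356 to 718 (adjusted p = 0.00296 and 0.00286), SEC24D, a cargo-binding COPII subunit, rose in DU145-DR (0.45, adjusted p = 0.0045), and TRAPPC1, a tethering subunit, fell there by 0.83 (adjusted p = 0.0057, limma). Of 17 COPI genes 6 rose and 1 fell in DU145-DR and 3 rose and 2 fell in ARCaPM-DR, with list medians of 0.20 and 0.12. COPZ1, a coat subunit, rose in both (0.38 and 0.52, adjusted p = 0.00726 and 0.0117), and ARF3, a small GTPase, rose in ARCaPM-DR (0.47, adjusted p = 0.00497). GBF1, an ARF exchange factor, fell in DU145-DR by 0.80 (adjusted p = 0.00176), and ARFGAP3 fell in ARCaPM-DR by 0.99 (adjusted p = 8.8e-04, limma).

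Of 24 p24 proteins, KDEL receptors and other cargo receptors, 3 rose in DU145-DR, where 0 fell, and 1 rose and 3 fell in ARCaPM-DR. SORT1 (sortilin) rose in both (0.65 and 0.61, adjusted p = 0.00336 and 0.00469), TMED2, a p24 protein, rose in DU145-DR (0.38, adjusted p = 0.00685), and M6PR, a mannose 6-phosphate receptor, and TMED8 fell in ARCaPM-DR by 0.67 and 0.74 (adjusted p = 0.0015 and 0.0226, limma). The TMED8 call was lost without Control replicate 1 (0.106) or Control replicate 2 (0.0903) and in 1 fit of all libraries (0.121). Of 23 genes of ER folding, 9 rose and 0 fell in DU145-DR, with a list median of 0.27, and 5 rose and 1 fell in ARCaPM-DR, with a median of 0.10. Beside both lists, 8.72% of all genes rose and 7.98% fell in DU145-DR, and 9.86% and 8.62% in ARCaPM-DR. The lists were not tested as sets. PDIA4, a disulfide isomerase, went from 2939 to 4907 in DU145-DR (0.75, adjusted p = 0.00703) and 2617 to 6913 in ARCaPM-DR (1.40, adjusted p = 5.2e-05); ERP44, which retains clients in the early pathway, rose in ARCaPM-DR (0.76, adjusted p = 6.3e-04), and XBP1, a transcription factor of the unfolded protein response, fell there by 0.30 (adjusted p = 0.0491, limma), a call lost in 12 of 21 alternatives, among them without any Control library, shGATA2a replicate 1 or any shGATA2b library.

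In 22Rv1-DR limma called 0 genes outside the 8 in each of these lists. At an unadjusted limma p below 0.05 there were 1 gene of the CREC family, 0 of the receptor and cargo list, 3 of the other SNAREs, 1 VAMP7 partner, 2 COPII genes, 2 cargo receptors, 4 ER folding genes, 0 COPI genes and 0 vitamin K genes. edgeR called 0 in each list, DESeq2 1 of the other SNAREs, and the replicate block 1 COPII gene. With the replicate block more were called in DU145-DR, against a background of 38.8%: 4 of 7 in the receptor and cargo list, 1 of 7 VAMP and longin SNAREs, 12 of 39 other SNAREs, 5 of 18 VAMP7 partners, 12 of 24 COPII genes, 11 of 17 COPI genes, 11 of 24 cargo receptors, 13 of 23 ER folding genes and 2 of 5 vitamin K genes. In 1 fit of all 27 libraries the DU145-DR calls of KIF5B (adjusted p = 0.198), SEC24D (0.105), TMED2 (0.278) and COPZ1 (0.228) were lost.

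In the vitamin K cycle, whose carboxylation CALU is known to inhibit, NQO1 rose and VKORC1, the vitamin K epoxide reductase, fell in ARCaPM-DR (0.57 and -0.58, adjusted p = 0.00209 and 0.00703, limma), and limma, edgeR and DESeq2 called 0 of 5 genes in DU145-DR, with 0 at an unadjusted p below 0.05.

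**Figure D4:**
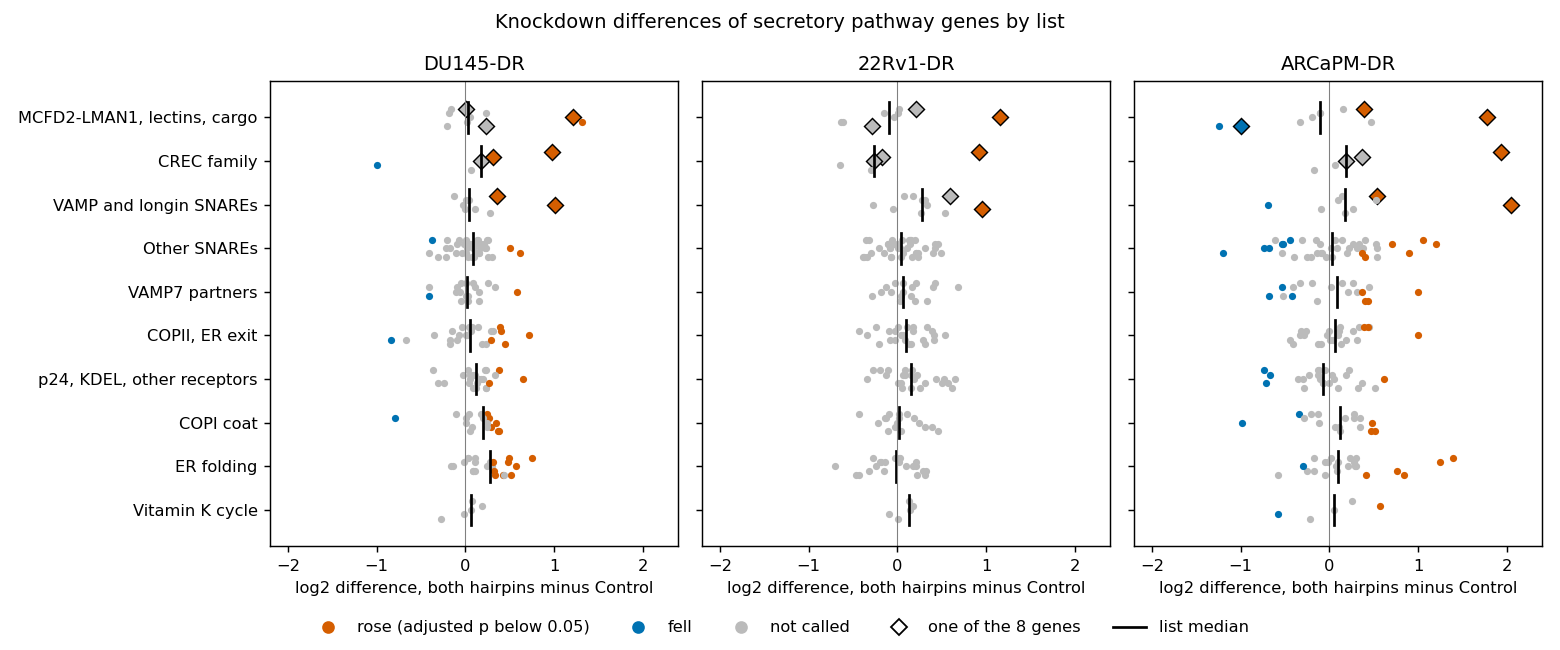
Log2 difference of both hairpins from Control for the genes of 10 secretory pathway lists, by line; points are genes, orange for higher and blue for lower past an adjusted p of 0.05, grey for not called, outlined diamonds the 8 genes, and vertical bars the list medians. List medians lie between -0.265 and 0.280. MCFD2, CALU and VAMP7 stand to the right of the other genes of their lists, except SERPINA1 in DU145-DR. The place of MCFD2, CALU and VAMP7 is a description, because they were chosen on these differences.

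Genes next to the 8 on the chromosome were described by the same fits. TTC7A, which overlaps MCFD2 on the opposite strand, had log2 differences of -0.01 for DU145-DR, -0.39 for 22Rv1-DR and -0.61 for ARCaPM-DR (adjusted p = 0.947, 0.533 and 0.0199, limma). Use of strand in counting was not given in the sources used here, so reads in the overlap cannot be told apart. SPRY3, beside VAMP7, differed by -0.53, 0.12 and 1.15 (adjusted p = 0.122, 0.908 and 0.0213), and CCBE1, beside LMAN1, was tested only in DU145-DR, where it rose (1.25, adjusted p = 3.4e-04, limma). Of 24 listed neighbours tested, 3 rose and 2 fell in DU145-DR, and of 23 in ARCaPM-DR 4 rose and 2 fell. Among all genes tested, 8.72% rose and 7.98% fell in DU145-DR, and 9.86% and 8.62% in ARCaPM-DR. CALM2, a calmodulin gene near MCFD2, rose in both lines (0.61 and 0.78, adjusted p = 0.00365 and 0.0141), and PARK7, near VAMP3, fell in ARCaPM-DR by 1.94 (adjusted p = 4.5e-05, limma). EPCAM, another of the listed neighbours and an epithelial marker, rose in ARCaPM-DR (0.99, adjusted p = 0.0204), a call lost without Control replicate 1 (0.105), Control replicate 3 (0.0935) or shGATA2a replicate 1 (0.0523).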

How the data were processed

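The authors deposited 1 table of signal per gene symbol, 23228 genes by 27 libraries. Within a library 99.954% of the values above 0 over the table are whole multiples of 1 step, which is how counts scaled by a size factor look, and division by that step gave back reads; the other 199 values lie in 58 genes. Per the submitters' processing notes, TopHat2 2.0.9 and Cufflinks 1.3.0 were used with hg19 (GRCh37); for the counting program, scaling tool and use of strand nothing was found (not given in the sources used here). Whether replicates are separate cultures is also open in the labels, and the p-values then reflect only spread among these samples, possibly technical. Replicates of a group differed beyond counting noise (chi-square per degree of freedom 6.4 to 103.7). Depth was 3.44 to 19.4 M reads, and 3 reads is the limit that a count of 0 allows, for counting error only.

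limma 3.58.1 under R 4.3.3, with its variance trend, was run on log2(value + 1) separately per line, keeping genes that reached 10 in 3 or more libraries. Fold changes on this scale understate those of low genes. Knockdown is the mean of both hairpin groups minus Control; differences of that effect between lines used all 27 libraries, and Control levels the 9 Control libraries. Adjusted p-values are Benjamini-Hochberg over all genes tested, with a threshold of 0.05, and rose, fell and called mean past it. The analysis was tested on simulated data. The members and lists were chosen with earlier results of these data known. Named genes are the 8, GATA2, from each list up to 2 genes rising and 2 falling with the smallest adjusted p in any line, and the 3 genes most like each chosen gene; neighbours, ratios, per-kilobase levels (exon lengths from GENCODE, GRCh38) and the genes at the edge of the selection were added after the values were seen.

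Replicate numbers were checked for pairing by correlating deviations from group means. The lowest same-numbered correlation of 9 pairs was 0.28 for DU145-DR, 0.21 for 22Rv1-DR and 0.06 for ARCaPM-DR. By this lowest value the numbers were taken to pair the samples in the first 2 lines only. The median same-numbered correlation was 0.39, 0.41 and 0.58 in the same order, against -0.21, -0.21 and -0.26 for other numbers. In ARCaPM-DR 7 of 9 libraries correlated best with their own number, against 9 of 9 in DU145-DR and in 22Rv1-DR. The main fits used no block in any line, so they leave this pairing out in the first 2 lines as well. The replicate block was run as an alternative in every line. The pairing comes from the data, not the labels. Alternatives were a pseudocount of 0.1, no filter, a filter of 50, median of ratios and quantile scaling, no trend, the replicate block, 1 fit of all libraries, edgeR 4.0.16 and DESeq2 1.42.0 on recovered reads (values not whole were rounded), and leaving out each library. Leaving out the 58 genes with values not whole, with and without the block, removing their round offsets, and leaving out those values were added after the data were seen.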

Additional observations from a re-analysis of the deposited data

Results flagged for a closer look

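The knockdown response of LMAN1 differed between lines in a test of the difference itself: it was -1.224 on the log2 scale in ARCaPM-DR relative to DU145-DR (adjusted p = 0.0172, limma, 27 libraries). In ARCaPM-DR all 6 knockdown libraries lay below the Control libraries, as for 10% of all genes there, and in DU145-DR all 6 lay above, also as for 10% of all genes. Over 36 alternatives the LMAN1 difference ran from -1.32 to -1.13 and its adjusted p from 3.8e-06 to 0.0563.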

How the results depend on the processing

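Median depth was 13.20 M reads for DU145-DR, 13.02 M for 22Rv1-DR and 10.75 M for ARCaPM-DR, with 3 libraries per group in each, and the part of depth in the numbers called was not tested. The numbers of all genes called moved with the processing; except where the construction shows it, the cause was not tested. In 1 fit of all 27 libraries, 650 genes were called in DU145-DR and 224 in 22Rv1-DR. With the replicate block, which pairs same-numbered libraries, the counts were 5184 for DU145-DR, 166 for 22Rv1-DR and 5885 for ARCaPM-DR; without the 58 genes as well they were 5149, 26 and 5842, and without those genes and without the block 1 gene was called in 22Rv1-DR. DESeq2 called 185 genes there, and the fit with no trend 3. Leaving out single libraries gave 857 to 2440 genes in DU145-DR (lowest without Control replicate 2), 0 to 37 in 22Rv1-DR and 1179 to 3545 in ARCaPM-DR. Of the 5 partners and relatives, 0 were called in DU145-DR and 1 in 22Rv1-DR in 1 fit of all libraries, and 1 in DU145-DR with no filter, with no trend and with quantile normalization; leaving out libraries gave 0 to 2 in DU145-DR. With the replicate block 2 were called for each of the 3 pairs of lines, and 1 of the 8 genes, LMAN1, for shGATA2b minus shGATA2a in ARCaPM-DR (-0.33, adjusted p = 0.042), also without the 58 genes. In ARCaPM-DR RCN1 had an adjusted p of 0.00257 with the block and 0.0447 without shGATA2a replicate 2. For ARCaPM-DR against DU145-DR and against 22Rv1-DR, leaving out libraries gave 0 to 1 of the 5. Quantile normalization called 3 of the 8 for Control levels of ARCaPM-DR against DU145-DR. Small differences turned sign: LMAN2 in DU145-DR was -0.007 by DESeq2, -0.011 by edgeR, -0.027 with quantile normalization and -0.159 to 0.102 without single libraries, and RCN2 for ARCaPM-DR against DU145-DR was -0.017 by edgeR and -0.065 to 0.080 without single libraries. Without single libraries, LMAN2 Control levels of ARCaPM-DR against DU145-DR ran from -0.041 to 0.220, the RCN1 response between those lines from -0.075 to 0.195, RCN2 in 22Rv1-DR from -0.488 to 0.040, and Control levels of ARCaPM-DR against 22Rv1-DR from -0.501 to 0.026 for RCN2 and from -0.051 to 0.178 for VAMP7. The VAMP3 response ran from -0.035 to 0.396 for 22Rv1-DR against DU145-DR and from -0.218 to 0.213 for ARCaPM-DR against 22Rv1-DR.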
